A study of Arabidopsis thaliana with 8 samples.

Results

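The plastid genome of *Arabidopsis thaliana* carries, besides its photosynthesis genes, a set of genes that keep the organelle's own gene expression and basic functions running. The 30 such genes described here were taken as the probe sets whose symbol in the platform annotation is a plastid gene of that kind. That rule reads no measured value, but the genes were chosen with earlier results of these data known. They comprise 10 proteins of the small ribosomal subunit (rps2, rps3, rps4, rps7, rps12, rps14, rps15, rps16, rps18 and rps19), 9 of the large subunit (rpl2, rpl14, rpl16, rpl20, rpl22, rpl23, rpl32, rpl33 and rpl36), 4 subunits of the plastid-encoded RNA polymerase (rpoA, rpoB, rpoC1 and rpoC2) and 7 others (matK, clpP, accD, ccsA, ycf1, ycf2 and cemA). They were read by 31 of the 22746 probe sets that are not array controls, since rps12 has 2. All 30 passed the filter on dim signals, which kept 14535 probe sets with a log2 intensity of at least 4 in at least 2 arrays.

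Transcripts were measured in whole seedlings of the ecotype Columbia 0, grown in darkness for 4 days in liquid Murashige-Skoog medium with 30 mM sucrose. In the heat then anoxia group the seedlings were held at 38 °C for 90 minutes and were then deprived of oxygen for 6 hours. The heat group received only the 90 minutes at 38 °C, the anoxia group only the 6 hours without oxygen at 23 °C, and the control group stayed at 23 °C in air. All 4 groups shared the darkness and the sucrose. No group is labelled as heated and then kept in air for 6 hours. In heat then anoxia against heat, anoxia and further time after the heat therefore cannot be told apart. Each group had 2 biological replicates with 1 Affymetrix ATH1 array apiece, and that small number sets the precision throughout. PORB, a protochlorophyllide oxidoreductase present in dark-grown seedlings, was bright in all 8 arrays, at log2 intensities of 11.85 to 13.95. It was lowest in heat then anoxia, at 12.17 and 11.85, and highest in controls, at 13.87 and 13.95. EXPA7 and EXPA18, expansins of root hairs, lay at 1.89 to 3.43 in the 6 treated arrays and at 4.09 to 6.78 in the controls. The part of root hairs in the plastid levels was not tested.

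As background, plastid genes are transcribed by 2 kinds of enzyme. The bacterial-type polymerase, whose core subunits are the rpo products, serves mainly photosynthesis genes. Phage-type polymerases made from nuclear genes serve mainly housekeeping genes, and accD, ycf2 and the rpoB operon are standard examples of genes read by them, while clpP is read by both. The transcripts are translated on a bacterial-type ribosome whose proteins come partly from the plastid and partly from the nucleus, and in dark-grown seedlings the organelle is an etioplast. Plastid RNAs carry poly(A) tails mainly as short-lived intermediates of decay. The share of these RNAs that had a tail was not measured here. In bulk RNA, fewer plastids, fewer cells and less RNA per cell cannot be told apart.

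Every value below is a log2 intensity, or a difference of log2 intensities, and the 2 values of a group are replicate 1 and then replicate 2. A gene was called higher or lower when limma gave a Benjamini-Hochberg adjusted p below 0.05 over all probe sets together with at least a 2-fold difference. Over all 14535 probe sets the median difference was -0.33 for heat then anoxia, -0.22 for heat and -0.01 for anoxia, each against the same control arrays.

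The plastid genes varied widely between replicates of a group. The median level of the 30 genes was 10.28 and 11.83 in heat then anoxia, 11.02 and 11.75 in heat, 11.15 and 12.23 in anoxia, and 10.84 and 11.86 in controls. In every group the median of the second replicate stood above that of the first, and the ranges of all 4 groups overlapped. The second replicate was higher for 30 of 30 genes in heat then anoxia, 25 in heat, 21 in anoxia and 26 in controls. Over all probe sets the second replicate was higher for 55.8% in heat then anoxia, 40.4% in heat, 54.8% in anoxia and 46.1% in controls. In all 4 groups at once it was higher for 21 of the 30 genes, or 70%, against 12.5% of all probe sets.

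**Figure D1:**
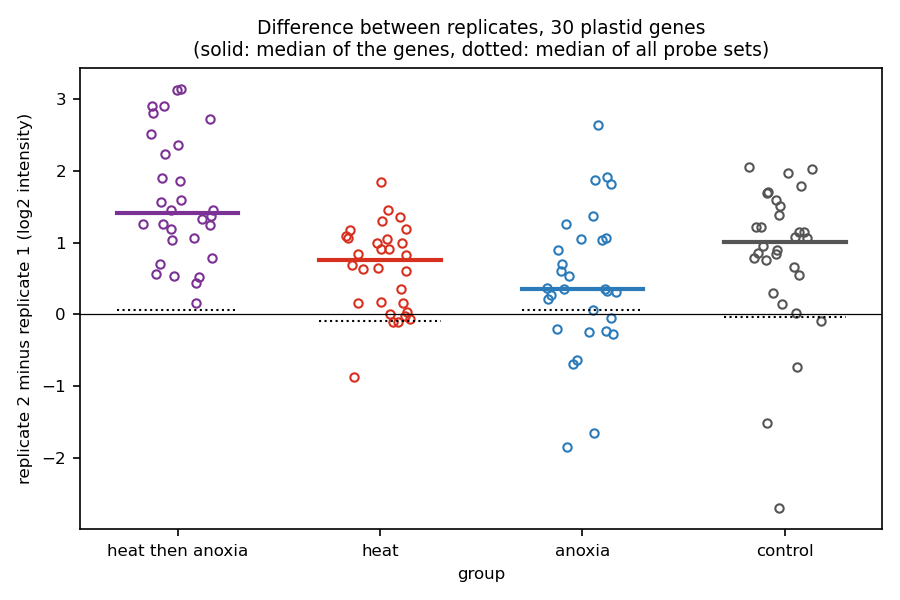
Difference in log2 intensity between replicate 2 and replicate 1 for each of the 30 plastid genes, in each of the 4 groups. Points above 0 are genes with more signal in replicate 2, which holds for 30, 25, 21 and 26 genes in heat then anoxia, heat, anoxia and control.

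The gap between replicates was widest in heat then anoxia, with a median of 1.41 and 23 genes over 2-fold, against 6.07% of all probe sets over 2-fold. The median gap was 0.76 in heat, 0.35 in anoxia and 1.01 in controls, with 9, 11 and 17 genes over 2-fold. The first heat then anoxia array held the lowest value of all 8 arrays for 21 of the 30 genes and the highest for 0. Of the other 46 plastid-encoded genes, replicate 2 was higher for 42 in heat then anoxia, 42 in heat, 21 in anoxia and 37 in controls.

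The within-group standard deviation, pooled over groups, had a median of 0.79 for the 30 genes, 0.64 for the other plastid-encoded genes and 0.30 for all probe sets. Its widest value was 1.60 for rps7, a protein of the small subunit's head, at percentile 99.9 of all probe sets. Its narrowest was 0.09 for rpl2, a core protein of the large subunit, at percentile 3.14. A log2 fold change of these genes accordingly had a median standard error of 0.60, against 0.30 over all probe sets.

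Several array controls were read beside these levels. The 25S ribosomal RNA control, which reads nuclear-encoded ribosomal RNA, was 4.47 and 11.46 in heat then anoxia, 5.81 and 6.58 in heat, 4.60 and 12.19 in anoxia, and 2.79 and 6.20 in controls. The 25S control was thus also higher in the second replicate of every group. The 5S ribosomal RNA control was 7.21 and 8.69 in heat then anoxia and 8.12 and 8.41 in heat. In anoxia it was 9.17 and 7.86 and in controls 8.26 and 6.34, lower in the second replicate of both. The difference between the 3' and 5' probe sets of GAPDH, a sign of RNA integrity, was 0.81 and 0.96 in heat then anoxia, 0.64 and 1.04 in heat, 0.76 and 0.82 in anoxia, and 0.66 and 1.10 in controls. The same measure for ubiquitin was instead lower in the second replicate of each group. The part of these quantities in the plastid levels was not tested. Across all probe sets the replicates of a group correlated at 0.965 to 0.979, median intensities were 36.8 to 53.3, and 58.1% to 60.6% of probe sets per array reached the filter level.

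**Figure D2:**
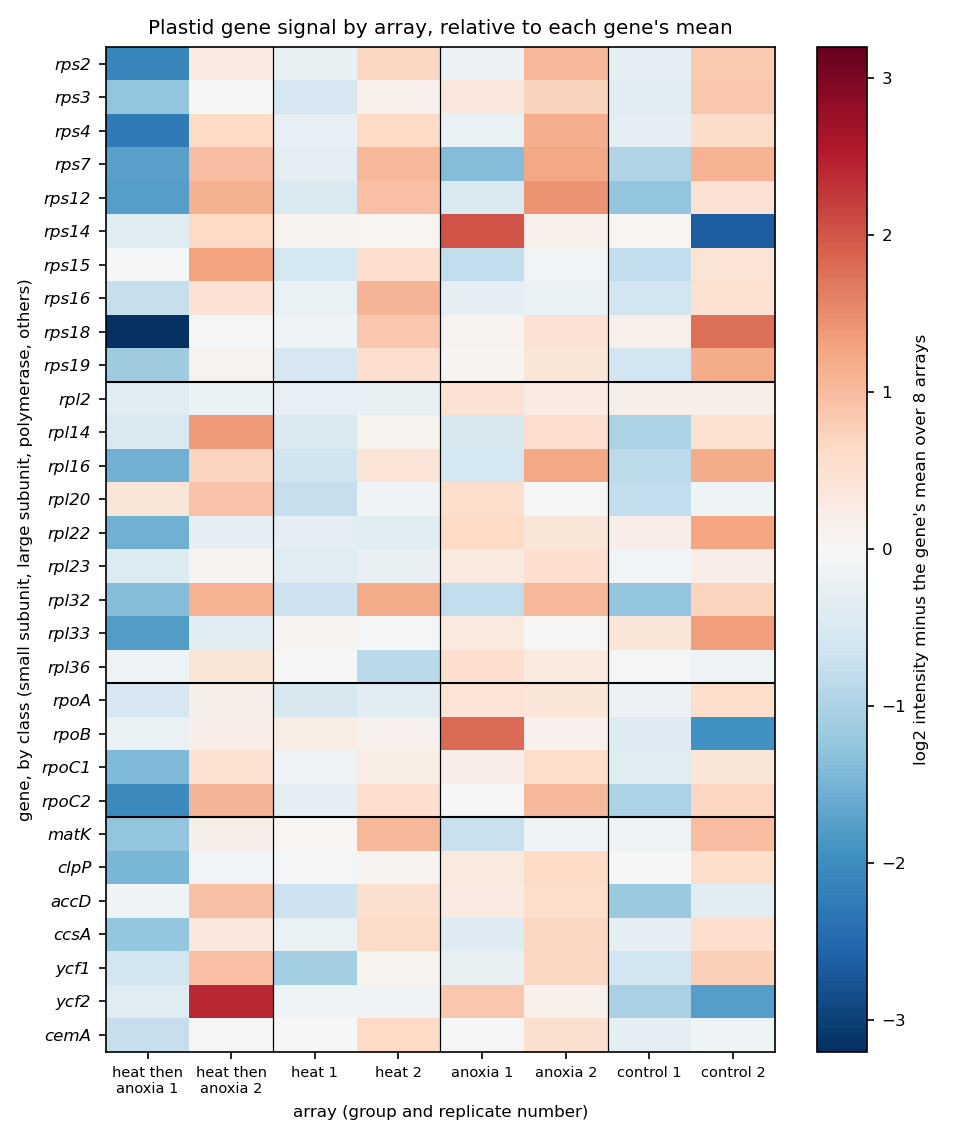
Log2 intensity of each of the 30 plastid genes in each of the 8 arrays, drawn as the difference from the gene's own mean, with genes ordered by class. The second array of each group is mostly above the gene's mean, and the first heat then anoxia array is the lowest for 21 of the 30 genes.

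Heat followed by anoxia gave the only calls against control: 4 of the 30 genes. The transcripts of ycf2, a subunit of an essential motor complex for protein import at the inner envelope, and of rpl20, a large-subunit protein, rose. Those of rpl33 and rpl22, both large-subunit proteins, fell. The 2 higher calls are 6.67% of the genes, against 15.2% of all probe sets called higher, and the 2 lower calls are the same share, against 25.4% called lower. At an unadjusted p below 0.05 there were 6 genes, against 56.5% of all probe sets. The median change of the 30 genes was -0.33, equal to that of all probe sets to 2 decimals. Of the genes 11 were above 0 and 19 below, against 38.2% of all probe sets above 0.

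rpl33, whose product is dispensable at normal growth temperature in tobacco but needed there in the cold, measured 10.82 and 12.27 in heat then anoxia, 12.69 and 12.58 in heat, 12.92 and 12.65 in anoxia, and 13.00 and 13.95 in controls. All 6 treated arrays lay below both control arrays. The change of rpl33 in heat then anoxia against control was -1.93 ± 0.49 (SE, n = 2 arrays a group), with an adjusted p of 0.0135. It was -0.84 in heat and -0.69 in anoxia, with adjusted p of 0.231 and 0.456, neither called. rpl33 was not called without the second control array (-1.45, adjusted p 0.0838) or without the first heat then anoxia array (-1.20, adjusted p 0.0654).

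rpl22, a protein that lines the exit tunnel of the large subunit, measured 10.87 and 12.13 in heat then anoxia, 12.11 and 12.09 in heat, 13.04 and 12.80 in anoxia, and 12.63 and 13.69 in controls. Both heated groups lay below both control arrays, and the anoxia arrays lay within the range of the controls. The change in heat then anoxia was -1.66 ± 0.47 (SE) with an adjusted p of 0.0203, and the call was lost without the second control array (-1.13, adjusted p 0.120) or the first heat then anoxia array (-1.03, adjusted p 0.115). In heat alone the change of rpl22 was -1.06 with an adjusted p of 0.123.

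rpl20 measured 9.94 and 10.46 in heat then anoxia, 8.81 and 9.44 in heat, 10.11 and 9.48 in anoxia, and 8.76 and 9.42 in controls. The heat arrays nearly matched the controls, and both groups without oxygen stood above both control arrays. The change in heat then anoxia was 1.11 ± 0.37 (SE) with an adjusted p of 0.0386, and in anoxia 0.70 with an adjusted p of 0.303. The rpl20 call was lost without the first control array (0.78, adjusted p 0.197), the first heat then anoxia array (adjusted p 0.0542) or the second (0.85, adjusted p 0.191).

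ycf2 measured 6.98 and 9.78 in heat then anoxia, 7.22 and 7.26 in heat, 8.23 and 7.54 in anoxia, and 6.34 and 5.61 in controls. All 6 treated arrays lay above both controls, and the second heat then anoxia array stood far above the rest. The change of ycf2 was 2.40 ± 0.78 (SE) in heat then anoxia with an adjusted p of 0.0347, 1.91 in anoxia with an adjusted p of 0.185 and 1.26 in heat with an adjusted p of 0.257. Without the second heat then anoxia array the ycf2 change was 1.00 with an adjusted p of 0.113, and the call was also lost without any 1 control or heat array (adjusted p 0.0528 to 0.152).

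**Figure D3:**
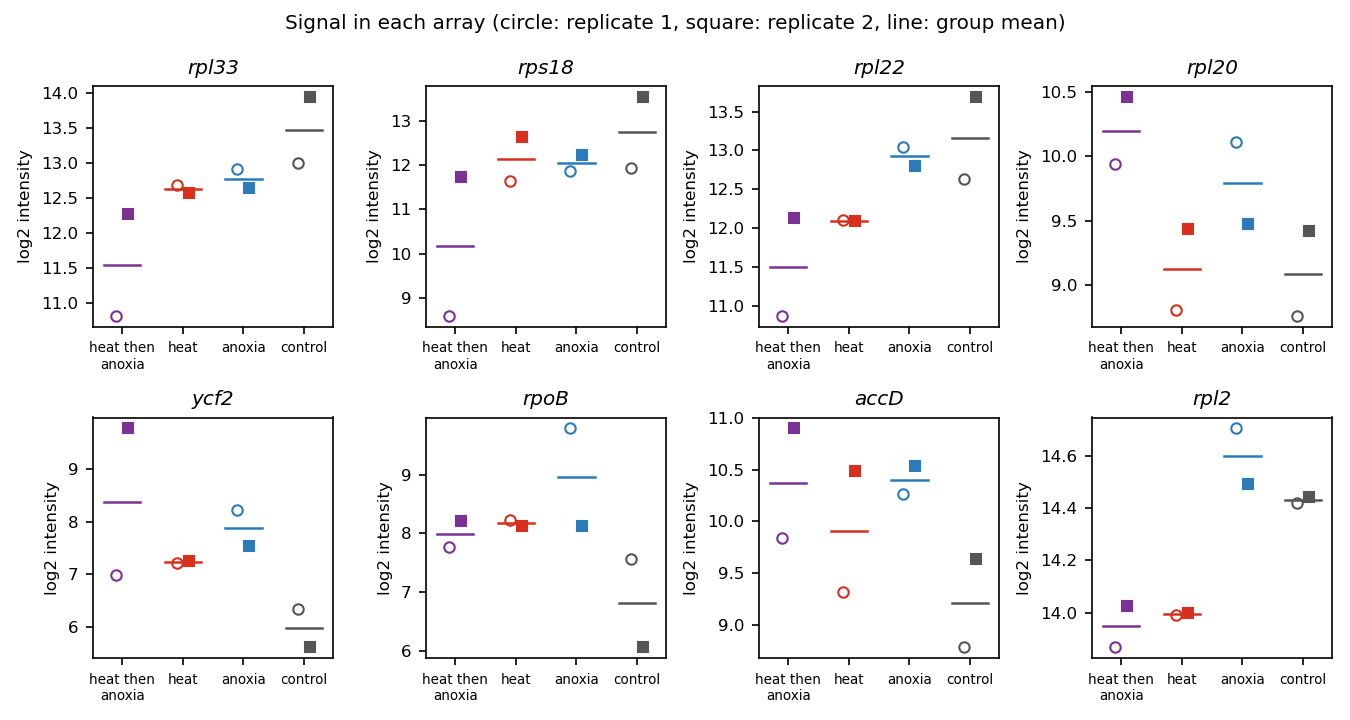
Log2 intensity in each array (points) with the group mean (bar) for 8 plastid genes, in heat then anoxia, heat, anoxia and control. rpl33 lies below both controls in all 6 treated arrays, ycf2 and rpoB lie above both, and rpl2 varies least between replicates.

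The following genes were chosen after their values were seen. rps18, a small-subunit protein encoded next to rpl33, measured 8.60 and 11.74 in heat then anoxia, 11.63 and 12.62 in heat, 11.87 and 12.22 in anoxia, and 11.94 and 13.54 in controls. Its change of -2.57 ± 0.95 (SE) in heat then anoxia was the furthest below 0 of the 30 genes and was not called (adjusted p 0.0544). The change of rps18 was -1.004 without the first heat then anoxia array (adjusted p 0.286) and -4.14 without the second (adjusted p 0.00457). clpP, the plastid-encoded proteolytic subunit of the Clp protease, measured 10.70 and 12.07 in heat then anoxia, 12.09 and 12.24 in heat, 12.46 and 12.79 in anoxia, and 12.17 and 12.72 in controls. Its heat then anoxia arrays lay below all 6 others, with a change of -1.07 against control (adjusted p 0.0748). The clpP change was -0.38 without the first heat then anoxia array and -1.75 without the second (adjusted p 0.0097).

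Without overlap between the arrays of heat then anoxia and control, 4 genes were higher (rpl20, rpoB, accD and ycf2) and 5 lower (rps18, rpl2, rpl22, rpl33 and clpP). Over all probe sets such shares were 29.0% higher and 49.3% lower, both above the shares of these genes. By class, the median change was -0.63 for the small subunit, -0.25 for the large subunit, -0.33 for the polymerase subunits and -0.14 for the others. The first array of the group weighed on these medians: without it the median of the 30 genes was 0.50, and without the second array it was -1.23. The 2 arrays high in 25S ribosomal RNA were the second ones of heat then anoxia and of anoxia. Leaving both out kept the same arrays for this comparison as leaving out the second alone, so its median of -1.23 was fixed in advance.

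**Figure D4:**
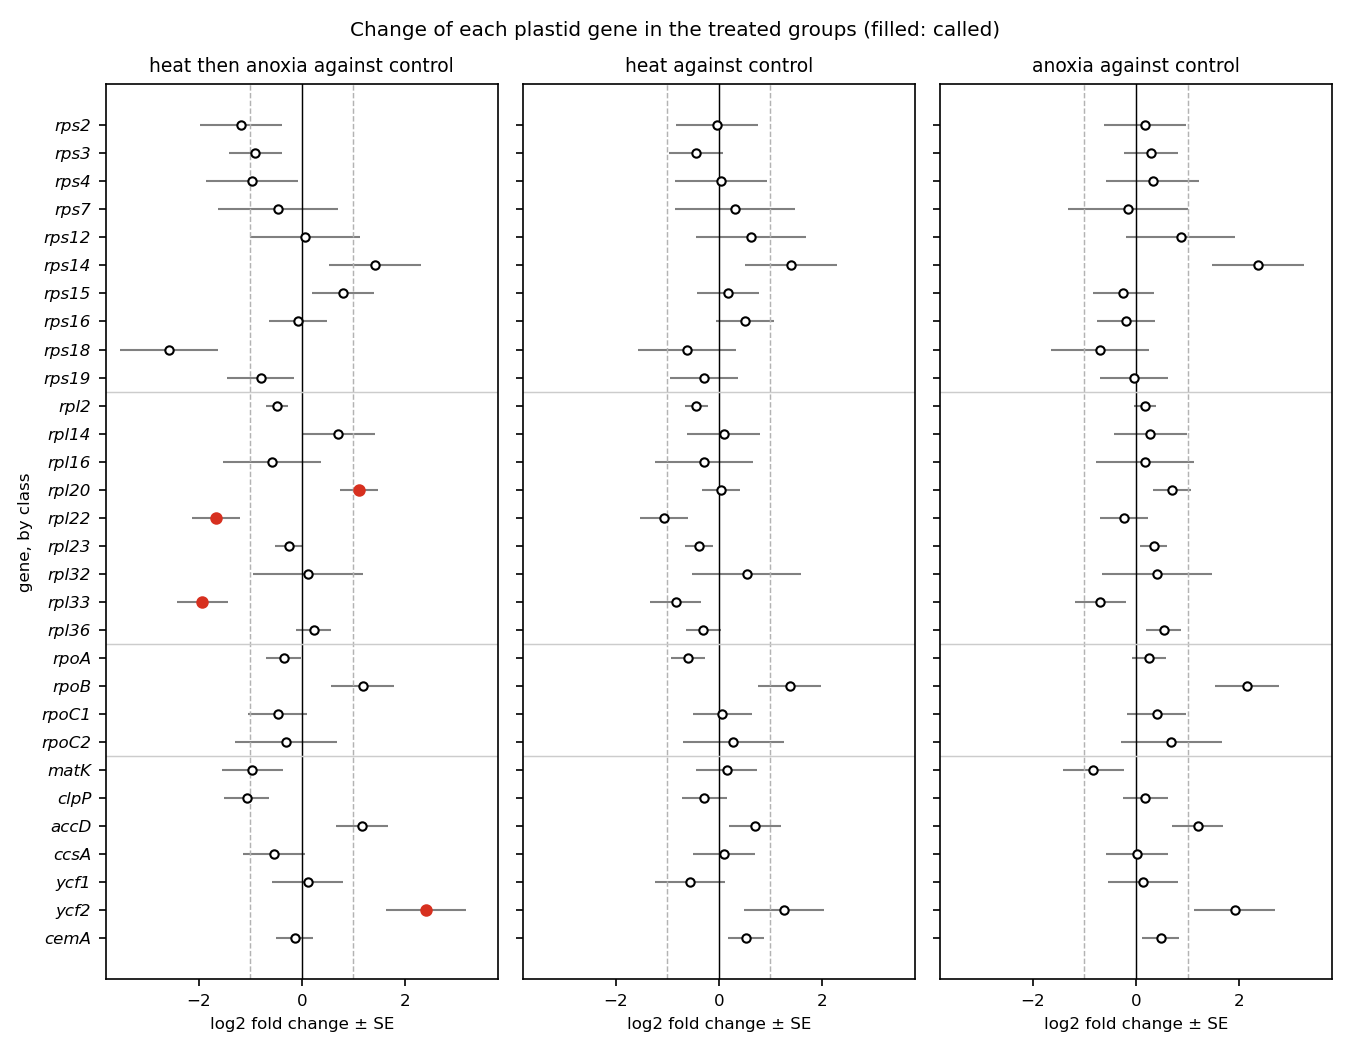
Log2 fold change of each of the 30 plastid genes against control for heat then anoxia, heat and anoxia, with standard errors. Only ycf2 and rpl20 (higher) and rpl33 and rpl22 (lower), all in heat then anoxia, were called (filled points).

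The genes are given along the plastid genome by their order in the RefSeq annotation. The 9 genes of the rpl23 cluster, a bacterial-type operon that holds rpl23, rpl2, rps19, rpl22, rps3, rpl16, rpl14, rpl36 and rpoA, had a median change of -0.48 in heat then anoxia, -0.39 in heat and 0.24 in anoxia. Within that cluster 7 of 9 genes were below 0 in heat then anoxia and 8 of 9 in heat, and rpl22 alone was called. Over all probe sets only 38.2% were above 0 in heat then anoxia and 38.4% in heat. Neighbours did not always move alike. rps18 and rpl33 stood side by side at -2.57 and -1.93, and the adjacent rpl20 stood at 1.11. In the operon list used here, rpl20 belongs with clpP, which stood at -1.07, and not with rps18 and rpl33.

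**Figure D5:**
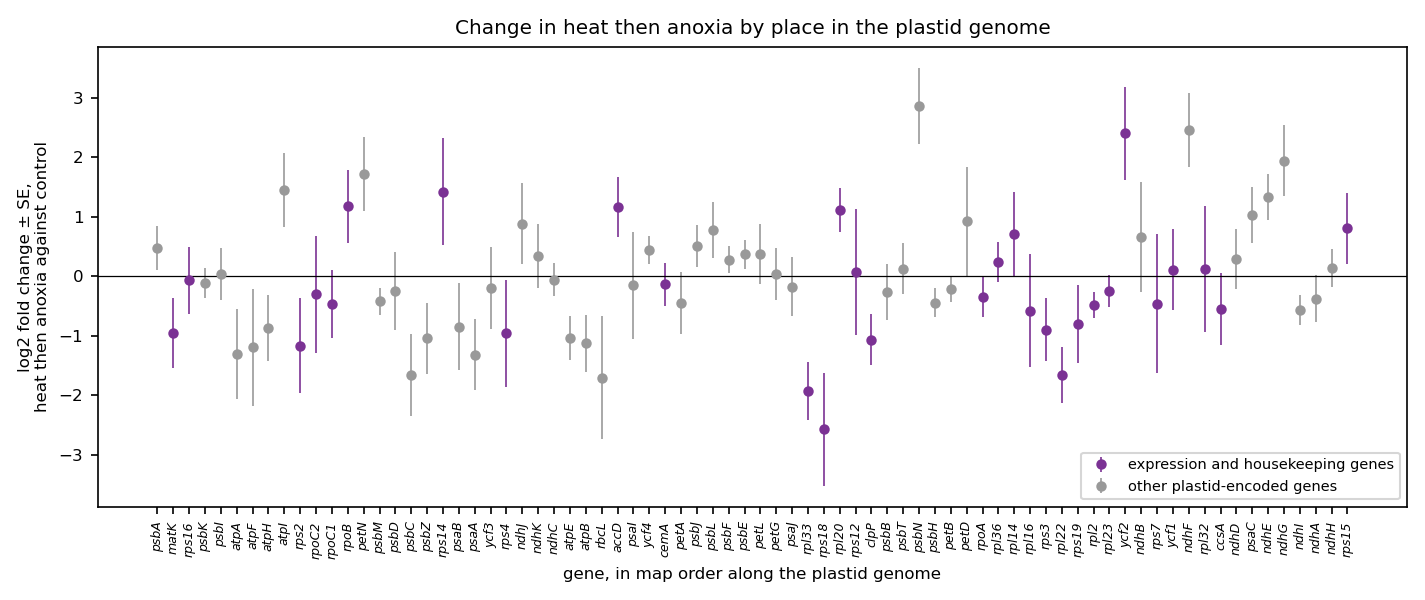
Log2 fold change in heat then anoxia against control with standard errors, for plastid-encoded genes in their order along the plastid genome, with the 30 expression and housekeeping genes marked apart from the rest. rps18 (-2.57) and rpl33 (-1.93) neighbour rpl20 (1.11), which is assigned to another operon.

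Heat alone called 0 of the 30 genes with limma, against 10.5% of all probe sets called higher and 17.9% called lower. At an unadjusted p below 0.05 the count was also 0, against 42.9% of all probe sets. The median change was 0.06, between -1.06 for rpl22 and 1.39 for rps14. Without the first control array the median was -0.45. Without overlap of the arrays, 4 genes were higher (rps14, rpoB, ycf2 and cemA), against 25.4% of all probe sets, and 5 lower (rpl2, rpl22, rpl23, rpl33 and rpoA), against 44.1%. cemA, an envelope membrane protein, measured 11.08 and 11.73 in heat and 10.81 and 10.95 in controls, and was the smallest of the 4 differences.

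rpl2 had 13.99 and 14.00 in heat, against 14.42 and 14.44 in controls, so the groups were apart by more than its replicates differed, yet by less than 2-fold. Saturation of the probes was not measured here.

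Anoxia alone also called 0 of the 30 genes with limma, against 3.95% of all probe sets called higher and 5.92% called lower. At an unadjusted p below 0.05 there were 4 genes, all higher (rps14, rpoB, ycf2 and accD), against 23.7% of all probe sets. The median change was 0.26, and it was -0.11 without the 2 arrays high in 25S ribosomal RNA, where ycf2 was called higher (2.25, adjusted p 0.0366). Without overlap of the arrays 9 genes were higher (rps14, rpl2, rpl20, rpl23, rpl36, rpoB, accD, ycf2 and cemA), against 24.4% of all probe sets, and 1 lower (rpl33), against 25.5%.

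rpoB, the beta subunit of the plastid-encoded polymerase, measured 7.77 and 8.21 in heat then anoxia, 8.23 and 8.13 in heat, 9.79 and 8.13 in anoxia, and 7.56 and 6.06 in controls. All 6 treated arrays lay above both controls, and its second control array was the lowest of the 8. The change of rpoB in anoxia was 2.15 ± 0.61 (SE) with an adjusted p of 0.0681, not called. It was called without the first control array (2.90, adjusted p 0.0483) or the second anoxia array (2.98, adjusted p 0.0341). The change of rpoB was 1.40 without the second control array and 1.32 without the first anoxia array, uncalled in both. For rpoC1 and rpoC2, read from the same operon, the anoxia changes were 0.40 and 0.68, and their arrays overlapped those of the controls.

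accD, the plastid-encoded subunit of acetyl-CoA carboxylase, which makes the first precursor of fatty acids, measured 9.84 and 10.90 in heat then anoxia, 9.31 and 10.49 in heat, 10.26 and 10.54 in anoxia, and 8.78 and 9.63 in controls. Both groups without oxygen lay above both controls, by 1.16 in heat then anoxia (adjusted p 0.0892) and by 1.19 in anoxia (adjusted p 0.201). rps14, a small-subunit protein, measured 8.50 and 9.53 in heat then anoxia, 9.01 and 8.95 in heat, 10.89 and 9.04 in anoxia, and 8.94 and 6.24 in controls. Its change of 2.37 ± 0.89 (SE) in anoxia was not called (adjusted p 0.151), and without the second control array, the lowest of the 8, it was 1.02. Without the first control array it was 3.72 (adjusted p 0.0401), and rps14 was then called higher in all 3 treated groups.

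Over the 3 treated groups together, rpoB and ycf2 were above both controls in all 6 treated arrays (6.67% of the genes against 10.5% of all probe sets), and rpl33 was below both (3.33% against 17.6%). These counts share the same control arrays across the 3 comparisons.

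Heat before anoxia called 1 gene lower against anoxia alone, rpl22, at -1.43 ± 0.47 (SE) with an adjusted p of 0.0455, and 0 higher, against 17.2% of all probe sets called lower and 12.8% called higher. At an unadjusted p below 0.05 there were 4 genes (rpl2, rpl22, rpl33 and clpP), against 48.3% of all probe sets. The rpl22 call was lost without the first heat then anoxia array (-0.80, adjusted p 0.233), either anoxia array (adjusted p 0.160 and 0.0942) or either heat array (adjusted p 0.0687). Of the 30 genes, 25 were below 0, where only 36.6% of all probe sets were above 0. The median was -0.63 for the 30 genes and -0.31 for all probe sets. Without the first heat then anoxia array the median of the 30 genes was 0.13. The difference of rpl2, -0.65 with an adjusted p of 0.0457, passed on p and stayed under 2-fold. Without overlap, 1 gene was higher (rps15, a small-subunit protein), against 25.5% of all probe sets, and 8 were lower, against 46.9%.

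Anoxia after heat, set against heat alone, called 0 of the 30 genes with limma, against 5.13% of all probe sets called higher and 4.66% called lower. At an unadjusted p below 0.05 there was 1 gene, against 27.2% of all probe sets: rpl20, at 1.08 ± 0.37 (SE) with an adjusted p of 0.108. Without overlap, rpl20 was higher, against 27.8% of all probe sets, and rpl33 and clpP were lower, against 33.7%. The median change was -0.48, and 0.43 without the first heat then anoxia array.

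The interaction was the change from heat to heat then anoxia minus the change from control to anoxia. Further time after the heat enters it too. It called 0 genes with limma, against 3.73% of all probe sets called higher and 2.45% called lower. At an unadjusted p below 0.05 there was 1 gene, against 23.7% of all probe sets: rpoB, at -2.34 ± 0.87 (SE) with an adjusted p of 0.154. The median of the 30 genes was -0.64, against -0.63 for the other plastid-encoded genes and -0.04 for all probe sets. Without the first heat then anoxia array, 16 of the 30 genes changed sign in the interaction.

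The remaining genes are described by level. Among small-subunit genes, rps3 and rps19 ran between 11.64 and 14.07 over the 8 arrays, rps4, which nucleates subunit assembly in bacteria, between 10.41 and 13.83, and rps2 between 8.17 and 11.33. rps7 ran between 10.20 and 13.20, and rps12, a protein of the decoding centre whose transcript is trans-spliced, between 9.03 and 12.23. The second rps12 probe set was dimmer and also lowest in the first heat then anoxia array, at 5.26. rps15 and rps16 ran between 9.11 and 11.20 and between 7.38 and 9.20.

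Among large-subunit genes, rpl23, which sits at the tunnel exit, was between 12.79 and 13.76, rpl14 between 8.45 and 10.85, rpl16 between 8.47 and 11.25, rpl32 between 10.61 and 13.19 and rpl36 between 10.08 and 11.46. Of the polymerase subunits, rpoA, the assembly subunit, was between 11.54 and 12.61, rpoC1 between 8.79 and 10.77 and rpoC2 between 7.15 and 10.29. Of the others, matK, the intron maturase, was between 11.53 and 13.87, ccsA, a factor for attaching haem to c-type cytochromes, between 11.18 and 13.07, and ycf1, a subunit of the inner-envelope import channel, between 10.60 and 12.66. Levels of different probe sets are not comparable with each other, and none of these genes was called in any comparison. The probe sets of rpl2, rpl23, rps7, ycf1 and ycf2 read genes with copies in both inverted repeats, whole or in part, and the copies cannot be told apart.

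Nuclear partners were measurable only in part, since most were not named on the platform table. Of 34 listed nuclear-encoded plastid ribosomal proteins 9 were measured, and 7 of them fell in heat then anoxia against control (median -1.30), with 0 higher, against 25.4% of all probe sets called lower. The call with the largest change was AT1G29070 at -1.89 ± 0.33 (SE, adjusted p 0.0024), followed by AT3G13120 (-1.61), AT4G17560 (-1.47) and AT1G64510 (-1.37). Heat alone and anoxia alone each called 0 of the 9 with limma, with medians of -0.19 and -0.18. Over all probe sets, heat called 10.5% higher and 17.9% lower, and anoxia 3.95% and 5.92%. At an unadjusted p below 0.05 both counts were also 0, against 42.9% and 23.7% of all probe sets. In heat then anoxia, 5 of the 9 fell against anoxia and 4 against heat, beside 17.2% and 4.66% of all probe sets called lower. The count against control was 3 without the first control array or the second heat then anoxia array. Against anoxia it was 1 without the first anoxia array or the second heat then anoxia array, and against heat it was 0 without any 1 array of these 2 groups and 2 without any 1 of the other 4. The difference between these nuclear genes and the plastid-encoded ribosomal genes was not tested.

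CLPP4, 1 of the 2 measured of 12 listed nuclear Clp subunits, fell by 1.30 in heat then anoxia (adjusted p 0.0229). The other, AT1G09130, stood at -0.34 (adjusted p 0.413). CAF1 and CFM3A, factors for splicing of plastid introns and the 2 measured of 11 listed splicing and decay factors, also fell, with changes of -2.13 (adjusted p 0.0054) and -2.23 (adjusted p 0.0014). Of the 8 sigma factors and phage-type polymerases, 1 was named, AT5G15700, and its probe set failed the filter, with all arrays between 2.51 and 2.98. Of 12 polymerase-associated proteins and 4 nuclear acetyl-CoA carboxylase subunits, 0 were named.

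The other 46 plastid-encoded genes had median changes of -0.01 in heat then anoxia, 0.24 in heat and 0.45 in anoxia. In heat then anoxia 4 of them were called higher and 1 lower, against 15.2% and 25.4% of all probe sets. Heat called 1 higher and 0 lower, against 10.5% and 17.9%. Anoxia called 0 in either direction, against 3.95% and 5.92%. Over the 24 probe sets of mitochondrial-encoded genes, recognised by symbol, the median level was 9.80 and 9.87 in heat then anoxia, 10.51 and 10.85 in heat, 7.39 and 7.10 in anoxia, and 3.62 and 3.35 in controls. The control medians lay under the filter level of 4, so no fold change is given for them. The difference between the 2 organelles was not tested.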

How the data were processed

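The deposited values are intensities on a linear scale, made with GCRMA per the submitters' processing notes, whose version is not given in the sources used here. Next, the log2 of each intensity was taken with no further normalization. After 64 array controls were set aside from 22810 probe sets, 14535 of 22746 passed the filter given in the opening. The 8 arrays entered a single limma model (version 3.58.1, R 4.3.3) of the 4 groups, which left 4 residual degrees of freedom, and p-values were adjusted (Benjamini-Hochberg) within each of 6 comparisons. Plots used Python 3.11.15 and matplotlib 3.10.9. The procedure was tested on simulated data.

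The members and the lists of nuclear partners were chosen with earlier results of these data known. Values in every array are given for members called in at least 1 comparison, and for others said to be chosen after their values were seen; of each list, up to 4 called genes are named. A gene with 2 probe sets is represented by the brighter. By the platform annotation, 13513 probe sets have 1 gene, 503 have several and 8730 have none; RefSeq was used for names and gene order only.

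Each choice was changed in turn: the filter (none, or log2 6), the prior (robust, with an intensity trend), the arrays fitted (those of the compared groups alone, or all but 1), the scaling (quantile or median), a replicate block, the thresholds (no fold limit, or adjusted p below 0.01) and the removal of cross-hybridising probe sets. Leaving out the 2 arrays high in 25S ribosomal RNA, and the settings for the nuclear ribosomal list, were chosen after seeing the data.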

Additional observations from a re-analysis of the deposited data

Results flagged for a closer look

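The 25S ribosomal RNA control probe set, which no comparison uses, read 11.46 in the second heat then anoxia array and 12.19 in the second anoxia array, above both control arrays (2.79 and 6.20). In those arrays the median of the 30 plastid genes was 11.83 and 12.23, against 10.84 and 11.86 in controls. The part of the ribosomal RNA signal in the plastid levels was not tested. No group had 4 or more arrays, so no array was tested as standing apart from its group.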

How the results depend on the processing

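Recomputed under the alternatives, the counts of called plastid genes stayed within 1.5 times the reported count in 187 cases and went beyond it in 51. Most of the reported counts were 0, and a 0 that stayed 0 is among the 187, so this tally says little about the calls made. No called plastid gene changed sign, but many uncalled ones did with 1 array left out. Without the first heat then anoxia array, 11 of the 30 genes changed sign against control, 11 against anoxia and 15 against heat. For heat against control, 13 changed sign without the second heat array and 12 without the first control array. For anoxia against control, 11 changed sign without the first control array. Counts of plastid genes called are given as higher and lower. The shares of all probe sets called under each changed setting are not given. The counts here and below therefore cannot be read as more or fewer than over all probe sets. For heat then anoxia against control they were 2 and 2. They became 0 and 1 with no filter, 1 and 1 with only the groups compared, and 0 and 0 at an adjusted p below 0.01. Removing cross-hybridising probe sets left 25 of the genes and took out ycf2, and the counts were then 1 (rpl20) and 2. With the stricter filter or the intensity trend, rps18 joined rpl22 and rpl33 as 3 lower calls. Against anoxia the 1 lower call became 0 with no filter, median centring, quantile normalization, a fit of only the groups compared or an adjusted p below 0.01, and 2 with the stricter filter, the intensity trend or no fold threshold. With only the groups compared, heat and anoxia each called 1 higher against control (ycf2).

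Without the 2 arrays high in 25S ribosomal RNA, heat and anoxia each called 1 higher, heat then anoxia called 0 higher and 7 lower against control, and 4 lower against anoxia. With 1 array left out at a time, higher calls ran from 0 to 1 in heat, 0 to 2 in anoxia, 0 to 2 in heat then anoxia against control, 0 to 1 against anoxia and 0 to 1 against heat. Lower calls ran from 0 to 7 in heat then anoxia against control and from 0 to 7 against anoxia. The lone array of a group was then assumed to vary like the other groups. The cause of these shifts was not tested.

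The labels number the replicates 1 and 2 in each group without saying that a number marks a shared batch. The correlation of the replicate differences between groups was 0.02 to 0.30 over all probe sets and 0.48 to 0.82 over the 30 genes. With a replicate block, anoxia called 2 higher (rpoB, adjusted p 0.0464, and accD, 0.0337). Heat then anoxia called 3 higher (rpl20, accD and ycf2) and 5 lower (rps2, rps18, rpl22, rpl33 and clpP) against control, 1 higher (rps15) and 5 lower (rps2, rps3, rps18, rpl22 and clpP) against anoxia, and 1 lower (matK) against heat. For the nuclear ribosomal proteins against control, the 7 lower calls became 4 at an adjusted p below 0.01 and 2 without the 2 arrays high in 25S ribosomal RNA.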
